A study of Mus musculus with 8 samples.

Results

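Txnip, its paralog Arrdc4, the carbohydrate-response genes Mlxipl, Mlx and Pklr, and the thioredoxin system genes Txn1, Txn2, Txnrd1 and Txnrd2 form a set of 9 genes, which were followed through pancreatic islets of obese and weight-cycled mice. They were picked by gene symbol from the 35596 genes of the expression table, and each symbol matched 1 Ensembl gene. The set was put together because Txnip was higher in weight-cycled islets, so the difference in Txnip is described below with no test, and the other 8 genes were added for their function. Islets are small clusters of endocrine cells in the pancreas that make insulin and other hormones. The donors were male mice of the inbred strain C57BL/6J, and islets were released with collagenase P and picked by hand, and their polyadenylated RNA was sequenced. Mice of the obese group ate a diet named 10% LFD (low-fat) for 9 weeks and then a diet named 60% HFD (high-fat) for 18 weeks, and 4 libraries were made from them. Weight-cycled mice went from the 60% diet (9 weeks) to the 10% diet (9 weeks) and back to the 60% diet (9 weeks), and again gave 4 libraries. Both groups therefore ended on the high-fat diet, and no lean group was analysed here. The last unbroken stretch on that diet was 18 weeks in obese and 9 weeks in weight-cycled mice, which cannot be told apart from the cycle itself. Whether the libraries are of different animals or of pools is not stated in the labels, so the p-values measure only the spread between libraries, which may be technical.

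Txnip encodes an alpha-arrestin that binds reduced thioredoxin and blocks it, and that also helps to remove glucose transporters from the cell surface. Its gene is among the most glucose-responsive in beta cells. When glucose enters the cell and is phosphorylated, the factor ChREBP (encoded by Mlxipl) binds carbohydrate response elements together with its partner Mlx, and switches on targets that include Txnip, Arrdc4 and the liver-type pyruvate kinase gene Pklr. Thioredoxins, Txn1 in the cytosol and Txn2 in mitochondria, reduce disulfides in other proteins and are themselves recharged by the thioredoxin reductases Txnrd1 and Txnrd2. In beta cells, high Txnip is known for promoting oxidative stress and cell death.

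The stretches in front of 4 of the genes are shown because they hold, or lack, the element through which this glucose response is known to act. Carbohydrate response elements consist of 2 copies of an E-box-like hexamer placed 5 bases apart. The letters searched were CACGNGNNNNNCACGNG, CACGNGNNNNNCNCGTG, CNCGTGNNNNNCACGNG and CNCGTGNNNNNCNCGTG, which together cover both strands. Sequences are RefSeq's on build GRCm38.p6, from 250 bases in front of the start to 50 after it, and all 9 genes had at least 1 such window. Those printed hold no annotated exon of the gene itself and run 5′ to 3′ on its strand. All 250 bases printed for Txnip, however, lie within annotated exon sequence that is not assigned to Txnip. The stretch of Pklr precedes its second start and lies inside the gene, in an intron of the transcript that begins at the first start. Capitals mark the 17-base element in Txnip and Pklr, the E-box CACGTG in Arrdc4 and Mlxipl, the CCAAT box (CCAAT or ATTGG) in all 4, and the forkhead letters GTAAACA in Txnip.
Txnip, chr3:96557707-96557956, strand +: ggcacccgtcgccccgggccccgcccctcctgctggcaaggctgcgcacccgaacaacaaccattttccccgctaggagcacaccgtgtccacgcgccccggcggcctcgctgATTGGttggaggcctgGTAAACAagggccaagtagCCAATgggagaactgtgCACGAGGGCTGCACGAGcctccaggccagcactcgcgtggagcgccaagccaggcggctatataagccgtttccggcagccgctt
Pklr, chr3:89136373-89136571, strand +: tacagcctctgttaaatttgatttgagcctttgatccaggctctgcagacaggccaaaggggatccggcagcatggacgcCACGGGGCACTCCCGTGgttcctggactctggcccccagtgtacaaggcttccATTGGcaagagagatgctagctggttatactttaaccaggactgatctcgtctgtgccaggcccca
Arrdc4, chr7:68749242-68749488, strand -: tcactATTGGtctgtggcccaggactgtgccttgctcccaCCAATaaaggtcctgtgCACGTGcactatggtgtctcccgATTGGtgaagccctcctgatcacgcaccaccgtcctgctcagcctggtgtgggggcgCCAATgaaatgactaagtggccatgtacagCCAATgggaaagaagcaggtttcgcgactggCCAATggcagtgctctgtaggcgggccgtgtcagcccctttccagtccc
Mlxipl, chr5:135089640-135089889, strand +: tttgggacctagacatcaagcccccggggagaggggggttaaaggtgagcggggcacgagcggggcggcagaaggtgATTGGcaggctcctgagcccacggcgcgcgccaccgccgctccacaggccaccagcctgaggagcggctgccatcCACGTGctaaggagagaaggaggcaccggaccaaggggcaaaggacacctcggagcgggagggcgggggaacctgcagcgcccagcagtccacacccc
The 17-base element begins at position -85 from the Txnip start, as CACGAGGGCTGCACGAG, and at -170 from the second of the RefSeq starts of Pklr, as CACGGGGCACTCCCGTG. It was in 0.0822% of 32851 start windows of all genes, or 26 of 27025 genes. Since the letters were chosen to fit the elements known from Txnip and Pklr, its presence in this pair is no result. No match was found in the windows of the other 7 genes, which says only that these letters are not there. The palindromic E-box CACGTG, whose letters also fit the hexamer, was in the windows of Arrdc4, Mlx and the first of the Mlxipl starts, and in 7.15% of all windows. The Arrdc4 window held 6 CCAAT boxes, a letter pattern that 37.4% of all windows contain at least once. Mlxipl has starts 17001 bases apart, which are known to give a longer and a shorter form of ChREBP, and the gene-level values below do not separate them.

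Levels are in TPM, a gene's length-corrected share of the transcripts of its library, so levels of different genes can be compared. Insulin, glucagon, somatostatin and other endocrine markers (Ins1, Ins2, Iapp, Gcg, Sst, Ppy and Chga) took 80.2% to 82.7% of TPM in every library, and stellate-cell and fibroblast markers summed to 1.27 to 2.83 TPM. TPM keep no record of sequencing depth, which is unknown here, and counting error cannot be given. Fold changes are weight-cycled minus obese on the log2(TPM + 1) scale, which understates low genes, and a gene passed at a Benjamini-Hochberg adjusted p under 0.05 over the 8127 genes with a mean of at least 1 TPM. Of those, limma called 25.2%, namely 98 higher and 1946 lower, with a median fold change of -0.26. After median-of-ratios scaling, which removes that shift of 0.25, the split was 101 higher and 46 lower. Weight-cycled replicate 1 stood apart from its group, scoring -7.98 on the first principal component beside obese libraries at -23.3 to -5.03 and other weight-cycled libraries at 13.8 to 30.6. Deviations of genes rose with transcript length in that library (Spearman's rho 0.345) and in obese ones (0.184 to 0.375), while weight-cycled replicates 2 to 4 had the opposite sign (-0.400 to -0.283). All 9 genes of the set passed the filter on low values.

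Txnip was the most abundant transcript of the set, and its mean level in weight-cycled islets was 2.18 times that in obese islets. Txnip (ENSMUSG00000038393.14, build mm10, chromosome 3, 96557957 to 96561883) stood at 64.8, 71.9, 42.7 and 72.7 TPM in obese replicates 1 to 4 and at 161, 165, 106 and 118 TPM in weight-cycled replicates 1 to 4. Every weight-cycled library lay above every obese one, and the lowest obese value, in replicate 3, was well under the others of its group. Group means were 63 ± 14 and 137 ± 29.7 TPM (SD, n = 4 each). On the log2 scale the difference was 1.12 (SE 0.185). Txnip ranked between 377 and 624 of the 8127 genes in obese libraries and between 187 and 287 in weight-cycled ones. After median-of-ratios scaling it lay at 39.5 to 71.4 in obese and at 117 to 209 in weight-cycled libraries, a log2 fold change of 1.44. It ranged from 0.94 (without obese replicate 3) to 1.23 (without weight-cycled replicate 3) when single libraries were left out. The gene shares 606 of its 3123 exonic bases with the antisense gene Gm15441, and the sources used here do not say whether reads were assigned by strand, so antisense reads could be counted in Txnip. In whole islets, a change in the number of cells of a type cannot be told apart from a change of RNA per cell. Summed markers lay at 45.8 to 74 TPM in obese and 25.3 to 52.3 TPM in weight-cycled libraries for endothelial cells (6 genes, 2 lower), and at 53.8 to 67.5 and 41.5 to 51.8 TPM for macrophages (8 genes, 5 tested, 3 lower). For acinar cells they lay at 2380 to 4435 and 2998 to 6990 TPM (10 genes, 9 tested, none called). Beside these calls, 23.9% of all tested genes were lower. After median-of-ratios scaling 1 endothelial and 0 macrophage markers were lower, beside 0.566% of all tested genes. None of these markers was at 0, and their part in the differences was not tested.

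**Figure D1:**
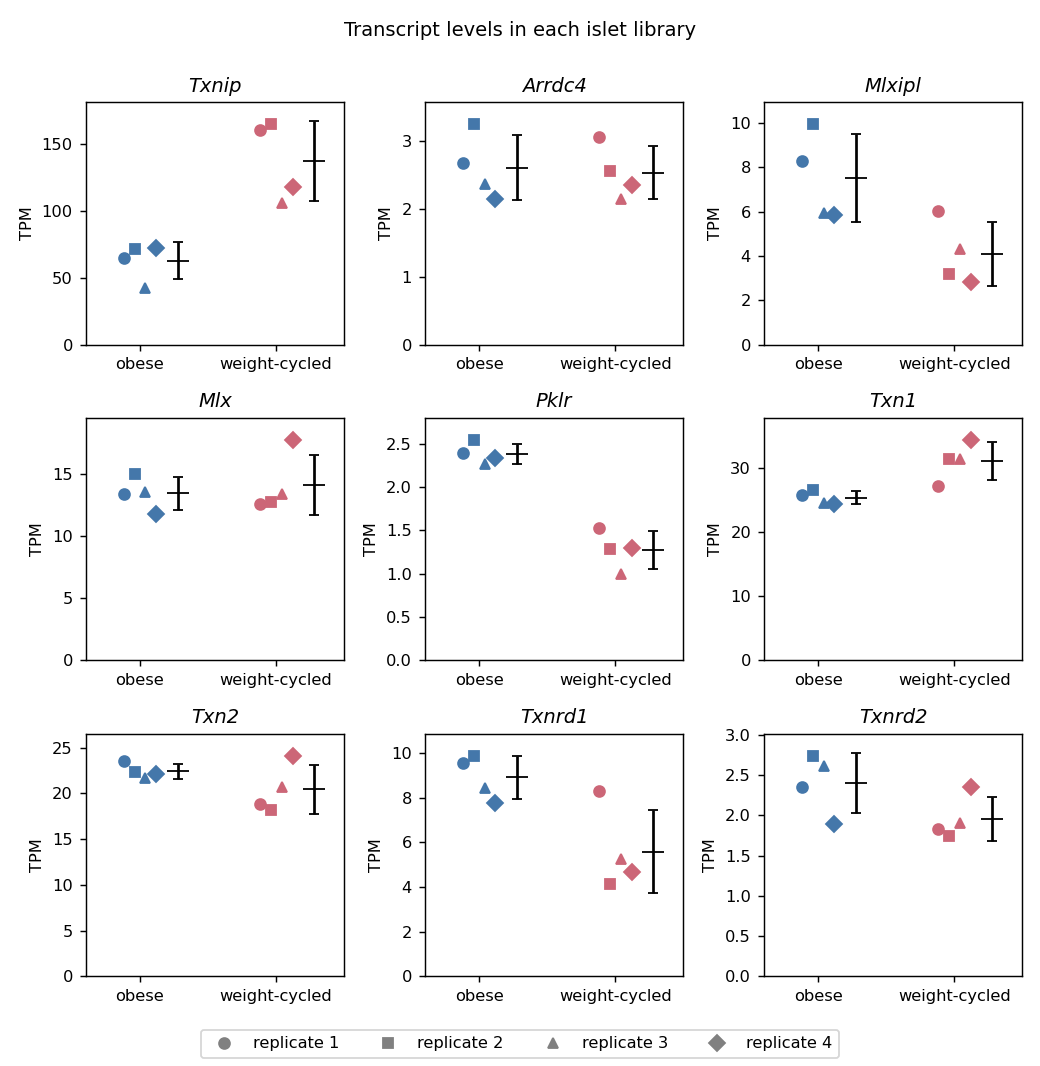
TPM of the 9 genes in each library (points, with a symbol per replicate number; blue for obese, red for weight-cycled), with the group mean and SD (n = 4) as a black bar beside them; each panel has its own axis from 0. Weight-cycled libraries lie above all obese ones for Txnip and Txn1 and below them for Pklr, and the groups overlap for the other genes.

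Arrdc4, the arrestin closest to Txnip and a known target of the same factor, did not pass the test and had group means of 2.6 ± 0.476 and 2.52 ± 0.391 TPM (SD, n = 4 each). Arrdc4 (ENSMUSG00000042659.15, chromosome 7, 68736995 to 68749241) was at 2.67, 3.24, 2.36 and 2.14 TPM in obese and 3.05, 2.56, 2.14 and 2.35 TPM in weight-cycled replicates. The groups overlapped almost fully, and the difference on the log2 scale was -0.03 (SE 0.126, limma adjusted p = 0.864), which became 0.21 after median-of-ratios scaling (limma adjusted p = 0.16). Txnip exceeded Arrdc4 by a factor of 18.1 to 34 in obese and 49.8 to 64.4 in weight-cycled libraries, which follows from the choice of Txnip for its rise. Of 6 further arrestin genes, 3 were tested, and 1 of these was lower, beside 23.9% of all tested genes. It was Arrb2, a beta-arrestin that quiets G-protein-coupled receptors, which fell by 0.44 (SE 0.127, limma adjusted p = 0.0382). Arrdc1 and Arrdc3, alpha-arrestins like Txnip, were at -0.20 and -0.01 (limma adjusted p = 0.186 and 0.922) and median-of-ratios scaling moved them to 0.03 and 0.16. Arrdc2, Arrdc5 and Arrb1 had means under 1 TPM.

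Of the other 8 genes, Txn1 rose, Mlxipl, Pklr and Txnrd1 fell, and Arrdc4, Mlx, Txn2 and Txnrd2 did not pass. That is 1 higher and 3 lower, where 1.21% and 23.9% of all tested genes were called in these directions. After median-of-ratios scaling 0 of the 8 passed (6 at an unadjusted p under 0.05 by limma), where 1.81% of all tested genes were called, 1.24% higher and 0.566% lower. After removal of the trend with length 1 passed, Txn1, where 3.31% were called and 1.78% were higher. Since the set was chosen on this contrast, nothing is read from these counts. Their median fold change was -0.17, beside -0.26 for all tested genes.

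Mlxipl, the gene of the glucose-activated factor ChREBP, was lower in weight-cycled islets. Mlxipl (ENSMUSG00000005373.13, chromosome 5, 135089890 to 135138382) was at 8.3, 9.94, 5.92 and 5.87 TPM in obese and 6.02, 3.17, 4.32 and 2.81 TPM in weight-cycled replicates. Weight-cycled replicate 1 lay within the obese range, and the other 3 lay below it. The log2 fold change was -0.76 (SE 0.203, limma adjusted p = 0.0353). After median-of-ratios scaling it was -0.48 and did not pass (limma adjusted p = 0.09). Mlx (ENSMUSG00000017801.15, chromosome 11, 101087277 to 101092207), the obligate partner of ChREBP, was at 13.4, 15, 13.5 and 11.8 TPM in obese and 12.6, 12.7, 13.4 and 17.7 TPM in weight-cycled replicates. Only weight-cycled replicate 4 left the obese range, and the fold change was 0.06 (SE 0.12, limma adjusted p = 0.71), or -0.05 without that library. After median-of-ratios scaling Mlx had a fold change of 0.37 and did not pass (limma adjusted p = 0.125). Mlx was then at 11 to 12.6 in obese and 11.9, 16.2, 14.7 and 21 in weight-cycled replicates. It shares 385 of its 1999 exonic bases with Psmc3ip, at a mean of 0.552 TPM. Of 10 other genes of the Mlx and Max network of transcription factors, 4 were tested and 1 was lower, a share near the 23.9% of all tested genes. It was Max, the partner shared by Myc and its antagonists, which fell by 0.49 (SE 0.157, limma adjusted p = 0.045). Mnt, Mxi1 and Mxd4, repressors that pair with Max or Mlx, were at -0.40, -0.43 and -0.22 (limma adjusted p = 0.0542, 0.0553 and 0.23), and Mxd4 turned to 0.07 after median-of-ratios scaling. Mlxip, the paralog of Mlxipl also known as MondoA, was under the filter at means of 0.693 and 0.412 TPM.

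Pklr, which encodes the liver-type pyruvate kinase and whose start carries the element shown above, differed from Txnip in direction. Pklr (ENSMUSG00000041237.12, chromosome 3, 89136142 to 89146784) was at 2.39, 2.54, 2.26 and 2.33 TPM in obese and 1.53, 1.29, 0.996 and 1.3 TPM in weight-cycled replicates. All weight-cycled libraries were below all obese ones, as in 21.1% of all tested genes, and also after median-of-ratios scaling, where 14.6% of genes had groups apart in either direction. Group means were 2.38 ± 0.12 and 1.28 ± 0.22 TPM (SD, n = 4 each). Pklr fell by 0.57 on the log2 scale (SE 0.106, limma adjusted p = 0.0247). After scaling the fold change was -0.36 and missed the threshold (limma adjusted p = 0.0592). It shares 711 of its 3236 exonic bases with Hcn3, a gene on the other strand at a mean of 0.643 TPM. Pkm, the far more abundant pyruvate kinase gene, fell alongside it from 142 ± 16.9 to 97.3 ± 14 TPM (SD, n = 4 each; log2 fold change -0.54, SE 0.123, limma adjusted p = 0.0321). After median-of-ratios scaling Pkm was at -0.22 with overlapping groups and did not pass (limma adjusted p = 0.172).

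Upstream of ChREBP, the gene for glucose uptake was lower as well. Slc2a2, which encodes the transporter through which mouse beta cells take up glucose, was at 60.8 to 91.5 TPM in obese and 25.5 to 44.8 TPM in weight-cycled libraries. The groups did not overlap, as in 21.1% of all tested genes in this direction. The log2 fold change of Slc2a2 was -1.10 (SE 0.176, limma adjusted p = 0.0165), and -0.78 after median-of-ratios scaling (limma adjusted p = 0.0393). Of all tested genes, 23.9% were called lower, and 0.566% after that scaling. Slc2a2 lost its call without obese replicate 1 (limma adjusted p = 0.0735), without weight-cycled replicate 4 (0.0604) and with no filter on level (0.0912). In these fits limma called 0, 10 and 0 of all tested genes.

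Among 20 other genes known as ChREBP targets in liver or islets, 12 were tested, 4 were lower, 0 higher and 8 did not pass (limma; background 23.9% lower and 1.21% higher), with a median fold change of -0.35 beside -0.26 for all tested genes. Acly, which makes cytosolic acetyl-CoA for lipid synthesis, was at 67.8 to 91.6 TPM in obese and 28 to 57 TPM in weight-cycled libraries, a fold change of -0.83 (SE 0.182; limma adjusted p = 0.0303). The other lower members were Tkt of the pentose phosphate pathway at -0.43, Khk, the fructokinase gene, at -0.42, and Mid1ip1, an activator of acetyl-CoA carboxylase, at -0.41. Of the 8 that did not pass, Klf10, a glucose-induced zinc-finger factor gene, had the highest fold change of this list at 0.34 (limma adjusted p = 0.116). After median-of-ratios scaling the list's median was -0.07 and 0 of 12 passed.

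Of 9 genes that act on or with the Txnip protein, 5 were tested, and 1 was lower, beside 23.9% of all tested genes. It was Prkaa1, a catalytic subunit gene of AMP-activated kinase, which marks Txnip for degradation, and it fell by 0.48 (SE 0.134, limma adjusted p = 0.0359). Itch and Nedd4l, ubiquitin ligase genes, of which Itch is known to degrade Txnip, were at -0.36 and -0.43 (limma adjusted p = 0.064 and 0.0554). Ddit4, whose product REDD1 forms a complex with Txnip, was at 0.62 and did not pass (SE 0.222, limma adjusted p = 0.0548). Its fold change ran from 0.39 without obese replicate 3 to 0.93 after median-of-ratios scaling, and Ddit4 passed without weight-cycled replicate 1 (0.54, limma adjusted p = 0.0481). Its values were 14.5, 13.5, 6.2 and 10.4 TPM in obese and 20.3, 19.8, 16 and 12.7 TPM in weight-cycled replicates, so that weight-cycled replicate 4 lay inside the obese range. Nlrp3, the inflammasome sensor gene that Txnip is known to engage, was under the filter, with group means of 0.0233 and 0.00358 TPM.

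**Figure D2:**
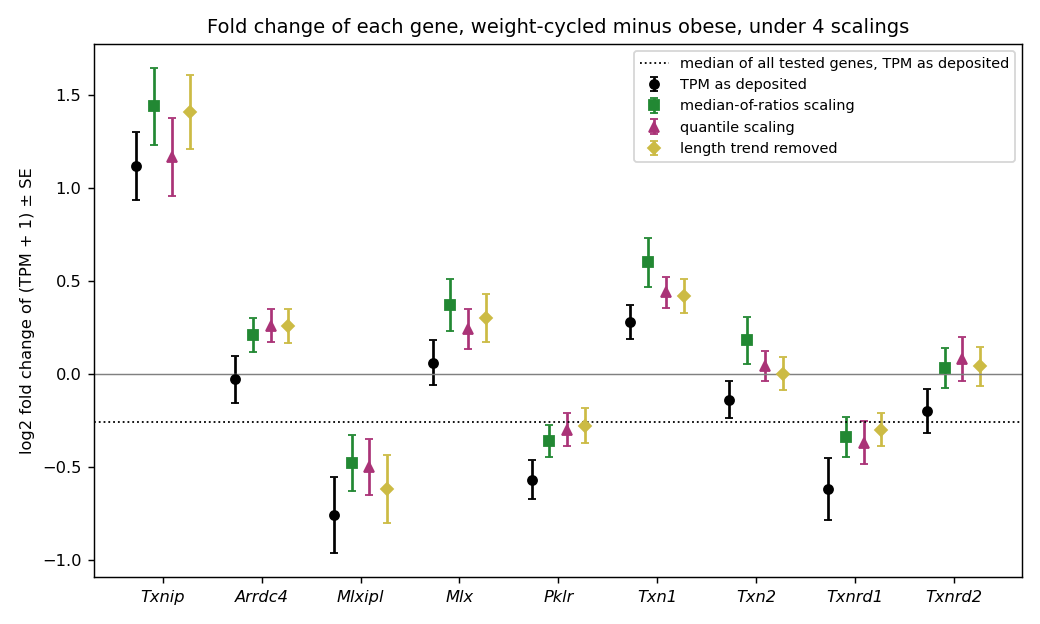
Log2 fold change of (TPM + 1), weight-cycled minus obese, with its SE for each of the 9 genes, on TPM as deposited (black), after median-of-ratios scaling (green), after quantile scaling (purple) and after the length trend was removed per library (yellow); the dotted line is the median of all tested genes at -0.26. Txnip lies at 1.12 to 1.44 under all 4, Mlxipl, Pklr and Txnrd1 stay below 0, and Arrdc4, Txn2 and Txnrd2 lie below 0 only on TPM as deposited.

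The cytosolic thioredoxin gene rose while the mitochondrial one did not pass. Txn1 (ENSMUSG00000028367.5, chromosome 4, 57943373 to 57956411) was at 25.9, 26.6, 24.6 and 24.5 TPM in obese and 27.3, 31.4, 31.4 and 34.4 TPM in weight-cycled replicates. The groups did not overlap, as in 22.4% of all tested genes in either direction and 1.3% in this one, although weight-cycled replicate 1 lay close to the obese libraries. Group means were 25.4 ± 1.03 and 31.1 ± 2.92 TPM (SD, n = 4 each). Txn1 rose by 0.28 on the log2 scale (SE 0.0912, limma adjusted p = 0.0461). After median-of-ratios scaling the fold change was 0.60 (limma adjusted p = 0.0514), and after removal of the length trend 0.42 (limma adjusted p = 0.0411). Txn2 (ENSMUSG00000005354.16, chromosome 15, 77915047 to 77929006) was at 23.6, 22.4, 21.7 and 22.1 TPM in obese and 18.8, 18.2, 20.7 and 24.1 TPM in weight-cycled replicates. Weight-cycled replicates 1, 2 and 3 lay below the obese range and replicate 4 above it, with a fold change of -0.14 (SE 0.0995; limma adjusted p = 0.276) that turned to 0.18 after median-of-ratios scaling. Txnip transcripts were 1.73 to 2.97 times as abundant as those of Txn1 in obese libraries and 3.39 to 5.9 times in weight-cycled ones. Since Txnip was chosen for its rise, this ratio is only described.

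Of the reductases, which pass electrons from NADPH to thioredoxin, the cytosolic gene was lower. Txnrd1 (ENSMUSG00000020250.10, chromosome 10, 82833951 to 82897712) was at 9.56, 9.86, 8.45 and 7.77 TPM in obese and 8.29, 4.12, 5.23 and 4.67 TPM in weight-cycled replicates. Weight-cycled replicate 1 fell within the obese range and the other 3 lay far below it. The log2 fold change was -0.62 (SE 0.166, limma adjusted p = 0.035), -0.80 without that library, and -0.34 after median-of-ratios scaling (limma adjusted p = 0.0928). Txnrd2 (ENSMUSG00000075704.16, chromosome 16, 18426384 to 18479073), the mitochondrial reductase gene, was at 2.36, 2.74, 2.61 and 1.9 TPM in obese and 1.83, 1.74, 1.91 and 2.35 TPM in weight-cycled replicates. These ranges overlapped, and the fold change of -0.20 (SE 0.118, limma adjusted p = 0.184) turned to 0.03 after median-of-ratios scaling.

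The calls of Mlxipl, Pklr, Txnrd1 and Txn1 hung on the libraries included, as did the number of all genes called. Mlxipl, Pklr and Txnrd1 lost theirs when any of obese replicates 1 to 3 or weight-cycled replicates 2 to 4 was left out, and kept them when obese replicate 4 or weight-cycled replicate 1 was. Txn1 kept its call only without weight-cycled replicate 1 among these 8 fits. Of all 8127 tested genes, limma called 0, 41 and 35 without obese replicates 1, 2 and 3. Without weight-cycled replicates 2, 3 and 4 it called 40, 71 and 10. It called 1736 without obese replicate 4 and 4711 without weight-cycled replicate 1, beside 2044 with all libraries. The losses are thus not particular to these genes. Over the alternatives tried, the adjusted p (limma) ranged from 0.00118 to 0.108 for Mlxipl, from 9.16e-04 to 0.108 for Pklr, from 6.77e-04 to 0.108 for Txnrd1 and from 0.00699 to 0.12 for Txn1.

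Relatives and clients of the thioredoxins are read against 23.9% of all tested genes called lower, 1.21% called higher and a median of -0.26. Of 17 other genes with a thioredoxin fold, 16 were tested, 4 were lower and 0 higher by limma, a share near that background, with a median fold change of -0.09. The lower ones were Glrx, the cytosolic glutaredoxin gene, which uses glutathione in place of thioredoxin reductase, at -0.41 (SE 0.0948), Tmx3 and Tmx4, membrane-bound oxidoreductase genes, at -0.40 and -0.52, and Glrx5, a mitochondrial iron-sulfur assembly gene, at -0.29. Glrx5 turned to 0.03 after median-of-ratios scaling. Of 13 genes whose products draw electrons from thioredoxin or are regulated by it, 10 were tested and 1 was lower, a share under that background, with a median of -0.03. That was Rrm2b, a ribonucleotide reductase subunit gene induced by p53, at -0.53 (SE 0.123, limma adjusted p = 0.0322). The thioredoxin-dependent peroxidase genes Prdx3 and Prdx5 were at -0.10 and 0.10 (limma adjusted p = 0.363 and 0.39), and Apex1, a DNA repair and redox factor gene, at -0.16 (limma adjusted p = 0.3). Median-of-ratios scaling moved Prdx3 to 0.21 and Apex1 to 0.11, and it left 0 genes of these 2 lists called. The medians of the fold and client lists were then 0.21 and 0.26, beside -0.01 for all tested genes. Over all 7 wider lists, 15 of 53 tested genes were lower, beside 23.9% of all tested genes, and after that scaling 1 was, Slc2a2, beside 0.566%. The other lower genes named from these lists each lost their call when any of obese replicates 1 to 3 or weight-cycled replicates 2 to 4 was left out. Those fits called only 0 to 71 of all 8127 tested genes.

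**Figure D3:**
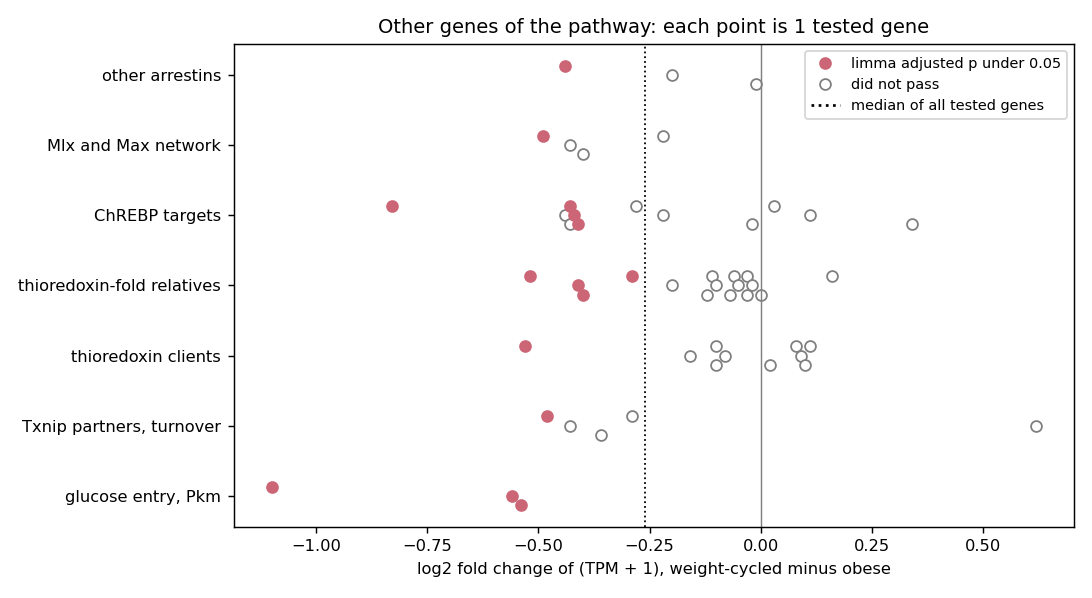
Log2 fold change of (TPM + 1), weight-cycled minus obese, of each tested gene of the 7 wider lists, 1 point per gene and filled where limma's adjusted p was under 0.05; the dotted line is the median of all tested genes at -0.26. All 15 filled points lie below 0, Slc2a2 farthest at -1.10, and Ddit4 at 0.62 is the highest of the 53 points.

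Order of abundance by group mean was the same in both groups for all 9 genes. Txnip, Txn1, Txn2, Mlx, Txnrd1 and Mlxipl came first, from 63 to 7.51 TPM in obese and from 137 to 4.08 TPM in weight-cycled islets. In obese libraries the ranges of neighbours among these genes were apart except between Txnrd1 and Mlxipl. Arrdc4, Txnrd2 and Pklr came last with means of 2.6, 2.4 and 2.38 TPM and overlapping ranges. In weight-cycled libraries Mlxipl also overlapped Arrdc4, Arrdc4 overlapped Txnrd2, and Pklr lay below all others at 1.28 TPM.

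Ratios of 2 transcripts within a library do not move with a factor applied to the whole library, and 4 of them without Txnip were compared by an exact permutation test over 70 assignments, two-sided, where the smallest p is 0.0286. Txn1 to Txn2 was the only one of the 4 whose groups did not overlap, at a ratio of 1.1 to 1.19 in obese and 1.43 to 1.72 in weight-cycled libraries. Its log2 values were 0.18 ± 0.0506 and 0.61 ± 0.121 (SD, n = 4 each; exact permutation p = 0.0286), and after adjustment over the 4 ratios the p was 0.0762. For Mlxipl to Mlx the log2 ratios were -0.69, -0.59, -1.19 and -1.01 in obese and -1.06, -2, -1.63 and -2.66 in weight-cycled replicates, a difference of -0.97 (exact permutation p = 0.0571, adjusted 0.0762). ChREBP transcripts thus went from 0.439 to 0.663 per Mlx transcript in obese to between 0.159 and 0.478 in weight-cycled libraries. Pklr made up little of the pyruvate kinase transcripts, at 0.0146 to 0.0182 per Pkm transcript in obese and 0.00978 to 0.0167 in weight-cycled libraries (log2 difference -0.36, exact permutation p = 0.0571, adjusted 0.0762). That difference shrank to -0.03 after removal of the length trend and was 0.06 after quantile scaling. Txnrd1 to Txnrd2 differed by -0.43 on the log2 scale (exact permutation p = 0.171, also after adjustment). None of the 4 passed after adjustment with all libraries. A single ratio at the smallest p cannot pass that adjustment, so the miss of Txn1 to Txn2 shows no lack of difference. Without weight-cycled replicate 1 the Txn1 to Txn2, Mlxipl to Mlx and Txnrd1 to Txnrd2 differences were 0.45, -1.23 and -0.67. Each then had the smallest p that the remaining libraries allow (exact permutation p = 0.0286, adjusted 0.0381). That library lay among the obese ones for Mlxipl to Mlx and above them for Txnrd1 to Txnrd2. Leaving it out sets those groups apart, so nothing is read from these p-values.

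**Figure D4:**
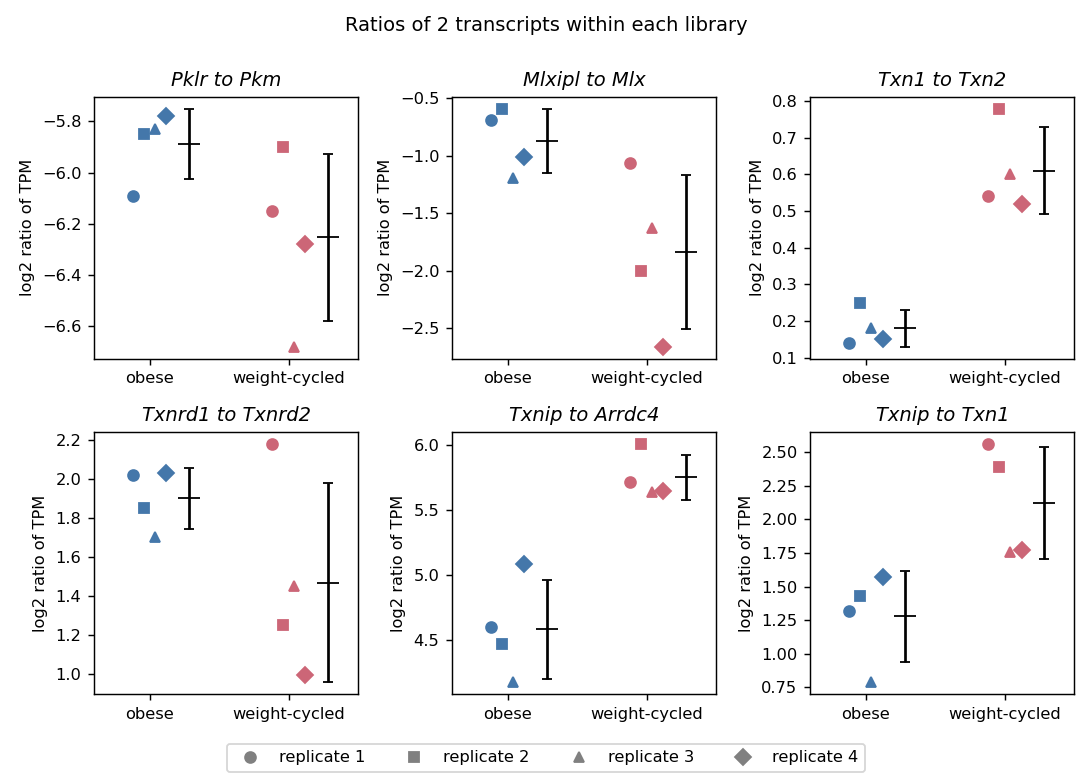
Log2 ratio of the TPM of 2 genes in each library (points, with a symbol per replicate number; blue obese, red weight-cycled), with the group mean and SD (n = 4) as a black bar; axes differ between panels and do not start at 0. Groups are apart for Txn1 to Txn2 and for the described ratios of Txnip to Arrdc4 and to Txn1, and weight-cycled replicate 1 lies among the obese libraries for Mlxipl to Mlx and above them for Txnrd1 to Txnrd2. The described ratios hold Txnip, which was chosen for its rise, so nothing is read from their separation.

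The genes whose profiles over the 8 libraries were nearest to that of Txnip were not members of the set. Likeness was the root mean square distance between log2(TPM + 1) profiles after subtraction of each gene's mean, so it counts the size of a difference as well as its shape and follows the group difference by which Txnip was chosen. The 5 nearest were Derl3, which encodes a protein of endoplasmic reticulum-associated degradation, at 0.25, Ttyh1, a chloride channel-like membrane protein gene, at 0.28, Cdk1, the mitotic kinase gene, at 0.28, Chil6, a chitinase-like gene, at 0.29, and Spc24, a kinetochore gene, at 0.30. Derl3 was at 4.88 to 8.88 TPM in obese and 9.33 to 16 TPM in weight-cycled libraries, with its lowest weight-cycled value in replicate 3, where Txnip was also lowest. Cdk1 was far lower than Txnip in level, at 0.158 to 0.476 TPM in obese and 1.42 to 3.13 TPM in weight-cycled libraries. With group means of 0.295 and 2.22 TPM, Cdk1 passed the filter of 1 TPM only through the weight-cycled group. Nothing is therefore read from its place near Txnip. Of the set, Txn1 was nearest at 0.53, which placed it at 169 among 8126 genes, and Arrdc4 followed at 0.62 and place 787. Mlxipl was among the most distant, at 1 and place 7983, with Txnrd1 at 7775 and Pklr at 7238.

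**Figure D5:**
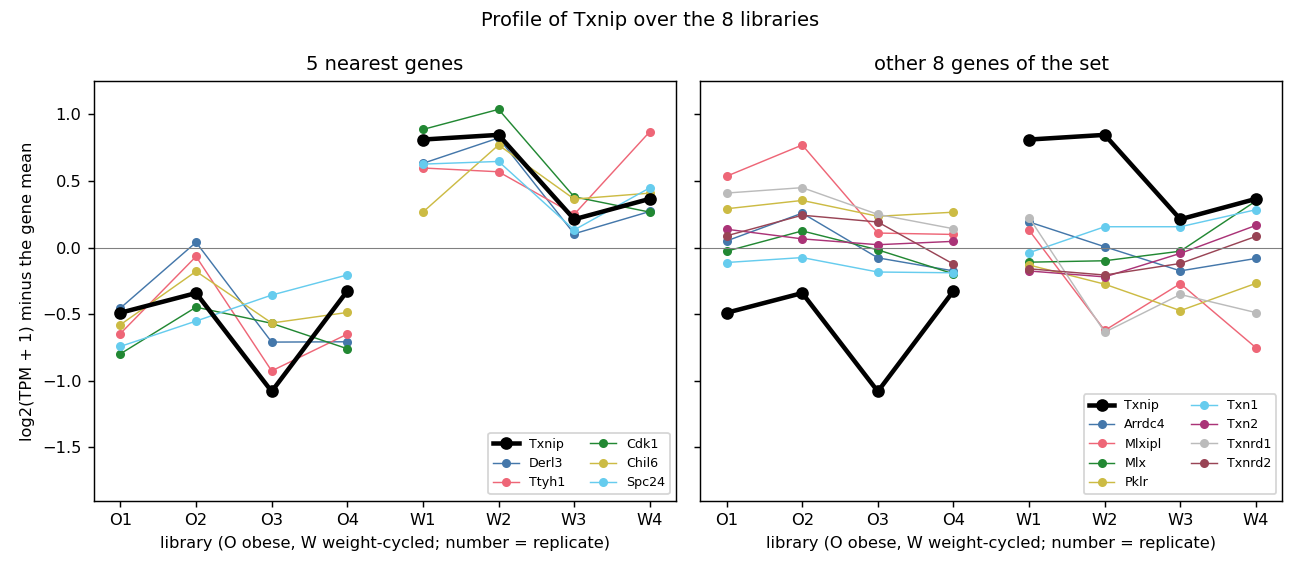
Log2(TPM + 1) minus the gene's mean over the 8 libraries (O obese, W weight-cycled, with the replicate number), for Txnip (thick black) beside its 5 nearest genes (left) and the other 8 genes of the set (right); lines only join the points of a gene within a group, and replicates have no order. Txnip and the 5 nearest genes lie above their means in weight-cycled libraries and below them in obese ones, except Derl3 in obese replicate 2, while Mlxipl, Pklr and Txnrd1 lie below their means in weight-cycled replicates 2 to 4.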

How the data were processed

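Polyadenylated islet RNA was sequenced in 8 libraries, 4 per group, grouped by the titles in the labels. The values analysed are the TPM per gene deposited by the authors, made with Salmon 1.5.2 and build mm10, per the submitters' processing notes; for the annotation, the step from transcripts to genes and the use of strand, the sources used here give nothing. Salmon shares reads of near-identical copies by estimate, columns sum to 999930 to 999949, and depth is unknown. Symbols were found for 35527 of 35596 gene IDs, and GENCODE M21 supplied coordinates and transcript lengths (GRCm38, the assembly that mm10 names).

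The 8127 genes whose mean reached 1 TPM entered a limma fit (limma 3.58.1, R 4.3.3; trended variance, no covariate) of log2(TPM + 1), with two-sided p-values adjusted by Benjamini-Hochberg over all of them. The fit was also run on simulated data whose noise was independent between genes. The real libraries share trends across genes, so that run does not bear on the error rate here. The members, lists, tests and alternatives were chosen with earlier results of these data known. Named genes were the 9 members, the up to 4 genes with the smallest p of each of 7 lists, and the 5 genes nearest to Txnip, predicted gene models left out. Genes named beside these (Mlxip, Nlrp3, Klf10, Arrdc2, Arrdc5, Arrb1) were chosen after their values were seen, and some results that the rule names are not reported here. Alternatives were pseudocounts of 0.1 and 5, median-of-ratios scaling, quantile scaling, no filter on level or one at 5 TPM, removal of the length trend (loess, span 0.5), a replicate block, and leaving out each library.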

Additional observations from a re-analysis of the deposited data

Results flagged for a closer look

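Dixon's ratio was computed for 94 groups of 4 values to find single libraries distant from the rest of their group, and 4 passed its limit where chance gives about 4.7. For Mlx, weight-cycled replicate 4 had 17.7 TPM and the rest of its group 12.6 to 13.4 TPM. For Arrdc1, weight-cycled replicate 1 had 2.23 TPM and the rest 1.87 to 1.91 TPM. For Arrdc3, obese replicate 3 had 1.42 TPM and the rest 1.16 to 1.17 TPM. The log2 ratio of Txnip to Mlxipl was 3.63 in obese replicate 4, 2.85 to 2.97 in the other obese libraries, and 4.62 to 5.70 in weight-cycled ones.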

How the results depend on the processing

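Txnip stayed at 0.94 to 1.44 on the log2 scale over 16 alternatives, and Mlxipl, Pklr and Txnrd1 stayed below 0 and Txn1 above 0 in each alternative in which they were tested. Of the other 8 genes, 4 were called on TPM as deposited, 0 with no filter (4 at an unadjusted p under 0.05 by limma), 0 after median-of-ratios scaling (6 unadjusted), 1 after quantile scaling, 1 after removal of the length trend, and 0 to 4 when single libraries were left out. Of all tested genes, limma called 2044, and 0 of 19482 with no filter (5686 unadjusted), 1080 at a mean TPM of 5, 147 after median-of-ratios scaling, 297 after quantile scaling, 269 after removal of the length trend, and 0 (without obese replicate 1, 2714 unadjusted) to 4711 (without weight-cycled replicate 1) when single libraries were left out. The cause of these changes in count was not tested. The length correction used annotated medians of 736 bases for Mlxipl and 725 bases for Pkm, which rest on short transcripts.

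Median-of-ratios scaling, quantile scaling and removal of the length trend turned Arrdc4 (0.21, 0.26 and 0.26), Txn2 (0.18, 0.04 and 0.00), Txnrd2 (0.03, 0.08 and 0.04), Arrdc3 (0.16, 0.25 and 0.29), Mxd4 (0.07, 0.02 and 0.06) and Prdx3 (0.21, 0.09 and 0.09) to the other sign. The first 2 of these also turned Arrdc1 (0.03 and 0.08) and Apex1 (0.11 and 0.11), median-of-ratios scaling alone Glrx5 (0.03), and removal of the length trend alone Itch (0.03). Leaving out single libraries moved Arrdc4 from -0.10 to 0.05, Arrdc3 from -0.09 to 0.05 and Mlx from -0.05 to 0.11, and turned Arrdc4 without obese replicate 2 (0.05) and weight-cycled replicate 3 (0.03), Mlx without weight-cycled replicate 4, and Arrdc3 without obese replicate 3 (0.03) and weight-cycled replicates 2 (0.03) and 3 (0.05). None of these passed when turned. Quantile scaling turned the Pklr to Pkm difference to 0.06. With single libraries left out, the log2 ratio differences ranged from -0.48 to -0.22 for Pklr to Pkm, from -1.23 to -0.69 for Mlxipl to Mlx, from 0.37 to 0.46 for Txn1 to Txn2 and from -0.67 to -0.27 for Txnrd1 to Txnrd2.

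Deviations of same-numbered libraries correlated at 0.21, -0.276, -0.0522 and 0.231, and 2 of 4 obese and 0 of 4 weight-cycled libraries correlated best with their own number, so the numbers were not taken as pairs. With the replicate block limma called 2903 genes and 3 of the 8 members (Mlxipl, Pklr and Txnrd1), Ddit4 passed (0.62, limma adjusted p = 0.0187), and the Txn1 to Txn2 difference of 0.43 had an exact sign-flip p of 0.125, the smallest that this block allows.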

Other observations

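Of the 26 genes whose start window held the 17-base element shown for Txnip and Pklr, 21 were in the expression table and 11 were tested. Leaving out Txnip, limma called 4 of 10 lower and 0 higher, with fold changes from -0.57 (Pklr) to 0.19 and a median of -0.33, beside 23.9% lower and a median of -0.26 over all tested genes. After median-of-ratios scaling the median was -0.03 and 0 of 10 passed. Besides Pklr the lower ones were Fem1b at -0.56, Fnip1 at -0.45 and Rbbp4 at -0.39, named after their values were seen.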
